A study of Mus musculus with 15 samples.

Results

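The proteasome is the protease complex that degrades proteins marked with ubiquitin. Its barrel, the 20S core, is built from rings of alpha subunits, which gate the entrance, and rings of beta subunits, some of which cut the substrate. A 19S regulatory particle docks on the barrel. Its base holds a ring of ATPases that unfold the substrate, and its lid removes the ubiquitin chain. Neurons use this system to turn over synaptic proteins as well as damaged ones, and cells that lose proteasome activity are known to raise the subunit genes together through the transcription factor Nrf1 (gene Nfe2l1).

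The genes described here are the proteasome subunit genes named Psma, Psmb, Psmc and Psmd with a number, and Psme1 to Psme4, without Psmb8 and Psmb9. The rule found 38 of the 15569 genes measured, and all 38 passed the filter on low values. They comprise 7 alpha genes, 6 standard beta genes, the alternative beta gene Psmb10, 6 ATPase genes, 11 other genes of the regulatory particle, 3 chaperones that assemble its base (Psmd5, Psmd9 and Psmd10) and 4 genes of activators. Psmb5, which encodes one of the cutting subunits, and the tissue-restricted Psma8 and Psmb11 are not analysed here.

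The RNA came from the striatum of pups of C57Bl/6J dams, taken at postnatal day 14, and gave 15 libraries. Pregnant dams of 3 groups had been exposed to aerosols of the redox-cycling herbicide paraquat (3 libraries), of titanium dioxide nanoparticles (TiO2, 4 libraries) or of the mixture of both (4 libraries), and the 4 control libraries are labelled untreated. No transgene or mutation is named for any group. Neither dose, dam, litter, sex nor batch is given, and nothing in the labels ties a library to its own animal. The p-values below therefore set each difference against the spread of these libraries alone, and that spread may be technical.

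Depth was 8690925 to 14207513 reads per library, with paraquat 3 the deepest. The levels below are normalised read counts, that is reads divided by a size factor of the library. All 10 markers of the striatal projection neurons (medium spiny neurons) were detected in every group, and 4 of them were called lower with paraquat, with a summed level of 71786 to 80905 there and 83187 to 91776 in control. With TiO2 1 of the 10 was called lower (Tac1) and the sum was 77516 to 85509, and with the mixture 0 were called and the sum was 70925 to 84001. The summed level of 6 oligodendrocyte markers was 37546 to 56216 in control and 82762 to 95964 in paraquat, and 5 of the 6 were called higher there. It was 51707 to 81394 in TiO2 and 44801 to 77881 in the mixture, with 0 of the 6 called. No gene of these lists was at 0 in a whole group, and the part of cell makeup in the results below was not tested. The summed level of 5 cortical neuron markers was 377 to 1062 in control, 1073 to 4644 in paraquat, 716 to 2145 in TiO2 and 1852 to 3698 in the mixture. Every paraquat library and every mixture library was above every control, and 0 of the 5 were called in any exposure. Over all genes tested, 10.4% were called with paraquat, 6.4% with TiO2 and 1.19% with the mixture. Mitochondrial transcripts held 19.7% to 21.8% of the signal in control, 16.8% to 18.5% in paraquat, 16.2% to 20.6% in TiO2 and 19.1% to 21.0% in the mixture. In bulk tissue, fewer cells of a type and less RNA per cell cannot be told apart.

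The standard subunits sit in equal numbers within the core and within the regulatory particle, but their mRNAs did not have equal levels in unexposed striatum. The order below also includes Psmb10, the assembly chaperones and the activators, for which equal numbers do not hold. Per kilobase of mRNA, Psmb2, a structural beta subunit gene, was highest at 992 ± 112 (SD, n = 4). Next came the lid gene Psmd8 at 778 ± 26.7 and the alpha genes Psma6 at 748 ± 26.8 and Psma7 at 678 ± 56.4. The median gene stood at 224, and 21 of the 38 lay within 2-fold of it. At the low end were the alpha gene Psma5 at 19.3 ± 3.20, Psmb10 at 18.6 ± 3.35 and the activator gene Psme2 at 18.5 ± 6.23, a 53.6-fold range from top to bottom. Of the 37 neighbouring pairs in this order, 29 had overlapping ranges over the 4 control libraries. Psmb2 stood clear of the gene below it, and so did Psma1 and Psmb1, whereas the last 3 overlapped one another. How reads matching more than 1 copy of a gene were treated is not given in the sources used here, and such reads could lower a level.

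**Figure D1:**
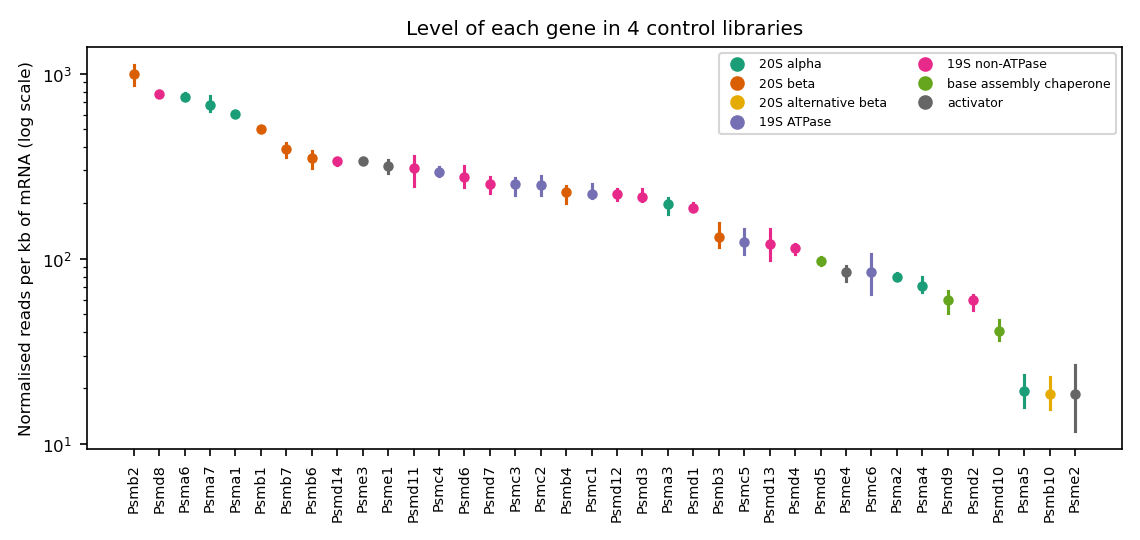
Normalised reads per kilobase of mRNA (log axis) of the 38 genes in the 4 control libraries, ordered by their mean. Points are means and bars run from the lowest to the highest library. Psmb2 stands at 992, and Psma5, Psmb10 and Psme2 between 18.5 and 19.3.

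The first comparison asks what prenatal paraquat changed in these genes. With paraquat, 8 of the 38 genes fell and 2 rose (limma, Benjamini-Hochberg adjusted p under 0.05 over 15556 genes). Over all genes tested, 10.4% were called, 4.06% lower and 6.34% higher. At an unadjusted p under 0.05 there were 17 members (26.6% of all genes). The falls were in the alpha genes Psma1, Psma2, Psma3 and Psma6, the cutting beta subunit gene Psmb6, the ATPase gene Psmc2 and the lid genes Psmd12 and Psmd14. The rises were in the beta gene Psmb4 and the lid gene Psmd3. All changes were modest, from a fold of 0.720 to 1.31. The median log2 fold change was −0.16 over the members (−0.074 with a trend of each library with GC content removed) and −0.0067 over all genes.

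All 7 alpha genes had a log2 fold change below 0 with paraquat, from −0.45 to −0.16 with a median of −0.38, and 4 of them passed the test. Psma3 had 367, 324, 374 and 392 normalised reads in control 1 to 4 and 279, 307 and 246 in paraquat 1 to 3. Every paraquat library was below every control library (log2 −0.40 ± 0.12 SE, adjusted p = 0.0315).

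Psma6 had 719, 678, 678 and 662 in control against 564, 568 and 469 in paraquat (log2 −0.36 ± 0.10, adjusted p = 0.0282). Psma1 went from 652, 635, 657 and 682 to 538, 584 and 486 (log2 −0.30 ± 0.09, adjusted p = 0.0449). Psma2 went from 244, 227, 230 and 227 to 180, 194 and 163 (log2 −0.38 ± 0.11, adjusted p = 0.0346). In each of these genes the groups did not overlap, and paraquat 3 was the lowest library. The other alpha genes did not pass: Psma4 had −0.42 ± 0.15 (adjusted p = 0.0685), Psma5 −0.45 ± 0.24 and Psma7 −0.16 ± 0.08.

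The beta ring was split. Psmb6, the gene of the subunit with caspase-like activity, had 246, 305, 274 and 287 in control and 226, 219 and 202 in paraquat (log2 −0.36 ± 0.10, adjusted p = 0.0239). A pseudogene copy, Psmb6-ps2, has its own row at 12.2 to 41.5 normalised reads, and reads it shares with Psmb6 could be split between them. Psmb7, the gene of the trypsin-like subunit, had 473, 492, 414 and 431 in control and 432, 357 and 380 in paraquat, with overlapping groups (log2 −0.22 ± 0.10, adjusted p = 0.148). Against these, Psmb4, a subunit without a cutting site, had 278, 292, 279 and 238 in control and 361, 327 and 375 in paraquat. All paraquat libraries were above all controls for Psmb4 (log2 0.38 ± 0.11, adjusted p = 0.0237). Psmb1, Psmb2 and Psmb3 did not pass, with −0.17 ± 0.08, 0.15 ± 0.10 and 0.21 ± 0.13.

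In the regulatory particle, the largest fall was in Psmd12, which encodes a scaffold subunit of the lid. It had 395, 436, 455 and 418 normalised reads in control and 273, 311 and 337 in paraquat (log2 −0.47 ± 0.10, adjusted p = 0.00519). Psmd14, the gene of the deubiquitinase that strips the chain from the substrate, had 535, 518, 538 and 493 in control against 392, 406 and 421 (log2 −0.36 ± 0.10, adjusted p = 0.0195). Psmd3, another scaffold gene of the lid, went the other way, from 446, 513, 443 and 441 to 561, 537 and 612 (log2 0.31 ± 0.09, adjusted p = 0.0376). These 3 lid genes each separated the groups without overlap, in both directions.

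Among the ATPases only Psmc2 passed, with 466, 499, 426 and 396 in control and 333, 383 and 375 in paraquat (log2 −0.29 ± 0.09, adjusted p = 0.0370). The other 5 ATPase genes had log2 fold changes of −0.16 to 0.19. None of the 3 base assembly chaperones and none of the 4 activator genes was called. Over all 38 genes, the paraquat libraries were below all controls in 13 (10.3% of all genes tested) and above all controls in 4 (11% of all genes). The summed level of the members was 14047 to 14177 in the paraquat libraries and 14768 to 15398 in control. It was 13895 to 15015 with TiO2 and 14262 to 15305 with the mixture. As a share of all signal, paraquat (0.151% to 0.160%) and control (0.153% to 0.164%) overlapped. As a share of signal without mitochondrial transcripts they did not (0.185% to 0.192% and 0.196% to 0.208%).

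The promoter sequences of 3 of these genes are shown because Psmd12 and Psmb6 fell and Psmb4 rose, and the known binding element for Nrf1, with the core TGACNNNGC, was searched in them. Each is the 250 bases before the start of the gene in RefSeq (GRCm38.p6), 5′ to 3′ on the gene's strand, and capitals mark a match to the core on either strand. The windows are chr11:107479278-107479527 (plus strand) for Psmd12, chr11:70525107-70525356 (plus strand) for Psmb6 and chr3:94886959-94887208 (minus strand) for Psmb4.
Psmd12: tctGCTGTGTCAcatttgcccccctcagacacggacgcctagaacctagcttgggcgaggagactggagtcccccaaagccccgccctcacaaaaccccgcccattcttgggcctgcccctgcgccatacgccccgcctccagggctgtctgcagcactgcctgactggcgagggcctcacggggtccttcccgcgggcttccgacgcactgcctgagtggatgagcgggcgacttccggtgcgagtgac
Psmb6: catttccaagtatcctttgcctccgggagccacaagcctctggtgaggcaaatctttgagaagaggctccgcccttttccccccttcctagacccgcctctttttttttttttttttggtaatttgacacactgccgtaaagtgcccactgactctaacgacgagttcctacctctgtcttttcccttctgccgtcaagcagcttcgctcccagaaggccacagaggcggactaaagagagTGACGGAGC
Psmb4: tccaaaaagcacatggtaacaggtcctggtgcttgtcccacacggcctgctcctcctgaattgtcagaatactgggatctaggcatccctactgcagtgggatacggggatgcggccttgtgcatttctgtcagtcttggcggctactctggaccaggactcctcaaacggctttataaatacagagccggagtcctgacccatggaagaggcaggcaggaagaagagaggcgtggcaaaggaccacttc
Psmd12 holds a match on the opposite strand that begins 247 bases before the start, and Psmb6 holds one on its own strand that begins 9 bases before it. No match lies in the Psmb4 window. RefSeq windows from 250 bases before to 50 after the start were found for 32 of the 38 members, and 5 of these genes held a match (Psmb6, Psmc6, Psmd9, Psmd12 and Psme4), or 15.6%. The share was 16.5% of the 10930 measured genes with a window and 14.0% of all 27025 genes with one. Counted by window it was 14.3% of the 35 member windows and 12.4% of all 32851. All 8 genes that fell with paraquat had a window, and 2 of them held a match, Psmd12 and Psmb6. The others, Psma1, Psma2, Psma3, Psma6, Psmc2 and Psmd14, held none. A match is a description of letters and not a bound site.

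**Figure D2:**
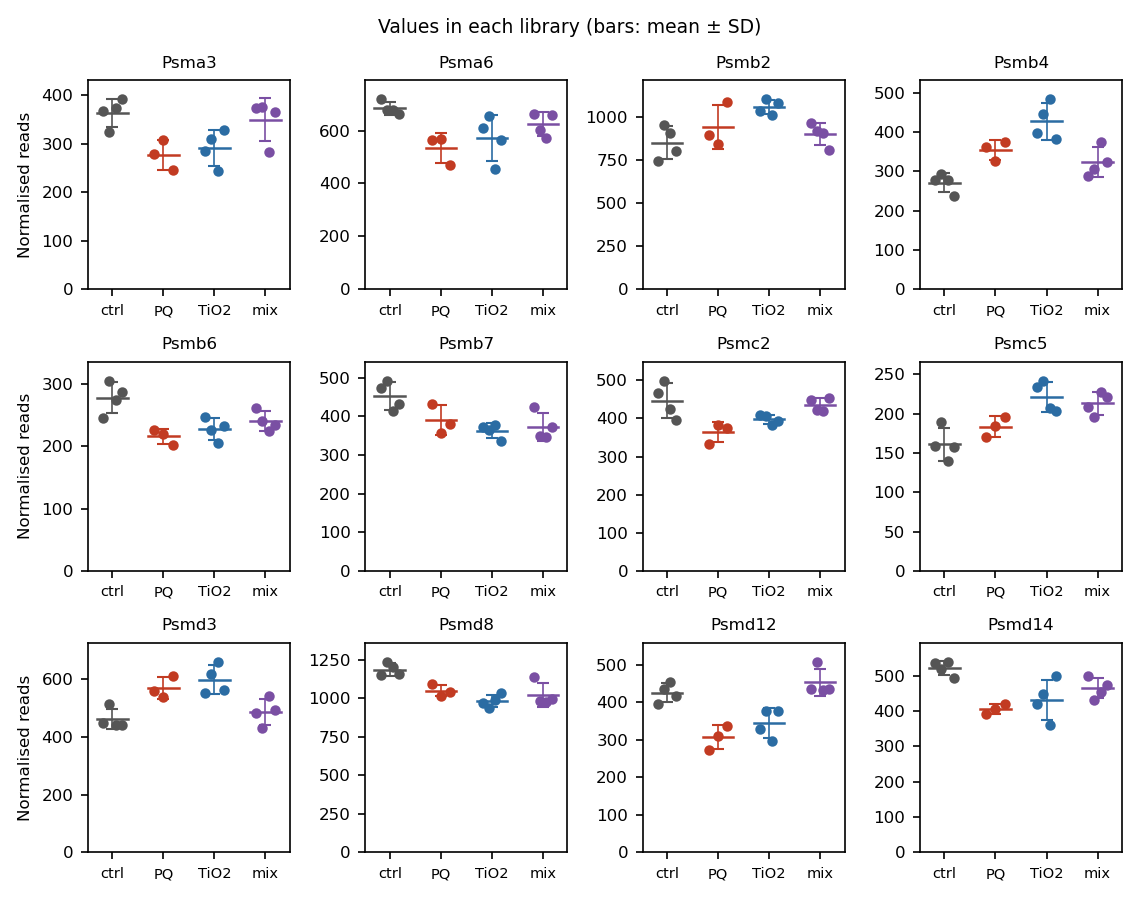
Normalised reads (axis from 0) of 12 genes in each control (ctrl), paraquat (PQ), TiO2 and mixture (mix) library. Points are libraries, long bars group means and whiskers ± SD; Psmd12 lies at 273 to 337 with paraquat and at 434 to 508 with the mixture.

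The base composition of the transcripts moved with these differences. Across the 38 genes, the log2 fold change of paraquat correlated with the GC content of the transcript at r = 0.63 (r = 0.40 across all genes). Genes are not independent replicates and share their libraries, so this is a description. The 8 genes that fell had a median GC content of 44.5%, the 2 that rose 54.1%, all members 49.2% and all genes 50.2%. After each library was corrected for its trend with GC content, 3 members were still called, Psmb6 and Psmd12 lower and Psmb4 higher, where 7.73% of all genes were called, 2.66% lower and 5.07% higher. All 7 alpha genes remained below 0 after that step, at a median of −0.26, but none passed. The part of GC content in the other changes was not tested further. The count of called members was 3 with control 1 left out (5.4% of all genes), 6 with control 3 left out (8.33%) and 4 with control 4 left out (6.62%). It was 2 when either paraquat 1 (4.73%) or paraquat 3 (4.27%) was left out.

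**Figure D3:**
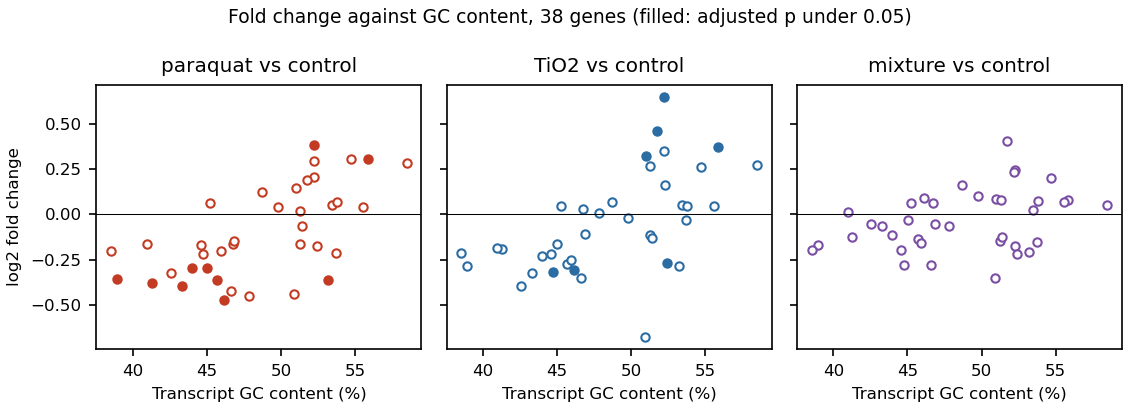
Log2 fold change against control (vertical axis) and transcript GC content in percent (horizontal axis) of the 38 genes for each exposure. Filled points passed the test, and r is 0.63 (paraquat), 0.56 (TiO2) and 0.35 (mixture).

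Psmd12 was called in each of 24 alternative settings and left-out libraries (adjusted p at most 0.0439). Each other call ended without 1 or more libraries. Psmb4 was lost without control 4, paraquat 1 or paraquat 3, Psmb6 without control 2, control 4 or paraquat 3, and Psmd14 without control 1 or paraquat 1. Psma6 was lost without control 1, paraquat 1 or paraquat 3, and Psmc2 without control 1, control 2, paraquat 1 or paraquat 3. Psma2, Psma3 and Psmd3 were lost without control 1, 3 or 4 or paraquat 1 or 3, and Psma1 without any of these or without TiO2 2, mixture 1 or mixture 2. A fit of only the 2 groups ended the calls of Psma1, Psmc2 and Psmd3.

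The next comparison sets the TiO2 nanoparticles against control. Here 4 members rose (Psmb4, Psmc5, Psmd3 and Psmb2) and 3 fell (Psmd8, Psmb7 and Psmd12), where 6.4% of all genes were called, 4.3% higher and 2.1% lower. At an unadjusted p under 0.05 there were 20 members (23.3% of all genes). The median log2 fold change was −0.11 over the members (−0.051 with the GC trend removed) and −0.010 over all genes. The control libraries are the same as in the paraquat comparison, so the comparisons are not independent.

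The largest change that passed in either single exposure was in Psmb4. It had 278, 292, 279 and 238 normalised reads in control and 396, 446, 484 and 383 in TiO2 1 to 4, a fold of 1.57 with no overlap (log2 0.65 ± 0.10, adjusted p = 0.000249). The mouse gene lies on chromosome 3 at 94884093 to 94886961 (GRCm38). Psmb2, another subunit without a cutting site, had 744, 954, 909 and 802 in control and 1038, 1106, 1013 and 1085 with TiO2 (log2 0.32 ± 0.09, adjusted p = 0.0300). Psmb7, the trypsin-like subunit gene, had 372, 365, 377 and 335 with TiO2 and fell below every control library (log2 −0.32 ± 0.09, adjusted p = 0.0322). Of the exon bases of Psmb7, 34.9% overlap exons of Nek6 on the other strand, and whether the counting used strand is not given.

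Psmc5, an ATPase of the base, had 158, 190, 139 and 157 in control and 233, 242, 207 and 203 with TiO2 (log2 0.46 ± 0.10, adjusted p = 0.00953). With paraquat it had 170, 185 and 196, which overlapped control (log2 0.19 ± 0.11, adjusted p = 0.284). The difference between paraquat and TiO2 for this gene was −0.27 ± 0.11 and did not pass (adjusted p = 0.704).

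The lid genes again went in both directions. Psmd3 had 551, 618, 659 and 562 with TiO2 against 441 to 513 in control (log2 0.37 ± 0.09, adjusted p = 0.0111). Psmd8, a lid gene whose control values were 1149, 1235, 1205 and 1158, had 970, 939, 990 and 1034 (log2 −0.27 ± 0.07, adjusted p = 0.0220). Psmd12 had 329, 376, 296 and 378 (log2 −0.31 ± 0.09, adjusted p = 0.0473). Each of the 3 separated the groups. The fall of Psmd12 was near the threshold and ended without any of the 4 control libraries, TiO2 1, 2 or 3, paraquat 2, or mixture 1, 3 or 4. It also ended in a fit of only the 2 groups and with the GC trend removed.

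None of the 7 alpha genes was called with TiO2, and 6 of them were below 0, at a median of −0.23 (−0.13 with the GC trend removed). Psma4, with 83.9, 92.9, 78.7 and 76.7 in control and 63.5, 64.9 and 56.6 with paraquat, had 74.7, 62.0, 73.3 and 51.7 with TiO2 (−0.35 ± 0.14). Psma3 had 285, 309, 244 and 329 (−0.32 ± 0.11, adjusted p = 0.0690) and Psma6 had 610, 657, 454 and 565 (−0.27 ± 0.10, adjusted p = 0.0893). TiO2 3 was the lowest library of its group in both. Psma1 had 619, 576, 493 and 556 and Psma2 had 200, 204, 177 and 234 with TiO2, again lowest in TiO2 3 (−0.23 ± 0.09 and −0.19 ± 0.11). Psmd14 had 419, 447, 359 and 498 (−0.28 ± 0.09, adjusted p = 0.0535) and the assembly chaperone gene Psmd9 had 204, 196, 198 and 188 against 132 to 173 in control (0.35 ± 0.11, adjusted p = 0.0502). Psmd9 had 191, 175 and 205 with paraquat, all above control, and 191, 210, 164 and 165 in the mixture, overlapping control. Over the 38 genes, all TiO2 libraries were below all controls in 8 (5.02% of all genes) and above all controls in 6 (7.51%).

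The other genes that had fallen with paraquat did not pass with TiO2. Psmb6 had 247, 227, 205 and 233, overlapping control in TiO2 1 alone (−0.29 ± 0.09, adjusted p = 0.0631). Psmc2 had 408, 408, 383 and 393, overlapping control (−0.16 ± 0.08, adjusted p = 0.243). Conversely Psmb2 and Psmd8, called with TiO2, were not called with paraquat. Psmb2 had 898, 844 and 1090 there, overlapping control, and Psmd8 had 1091, 1017 and 1042, all below control (−0.18 ± 0.08, adjusted p = 0.136).

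The TiO2 calls of Psmb4, Psmc5 and Psmd3 held in each of 24 alternative settings and left-out libraries (adjusted p at most 0.00215, 0.0409 and 0.0471). That of Psmb2 ended without control 1, control 4, TiO2 1 or TiO2 2, and that of Psmd8 without TiO2 1 or TiO2 2. That of Psmb7 ended without any library of the comparison except control 3, and with the GC trend removed. The count of called members was 4 without control 1 (3.23% of all genes) or control 4 (3.74%) and 3 without TiO2 1 (5.07%) or TiO2 2 (3.45%). With the GC trend removed it was 6, 4 higher and 2 lower, of which 5 were among the 7. Of all genes 5.51% were then called, 4.02% higher and 1.48% lower.

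**Figure D4:**
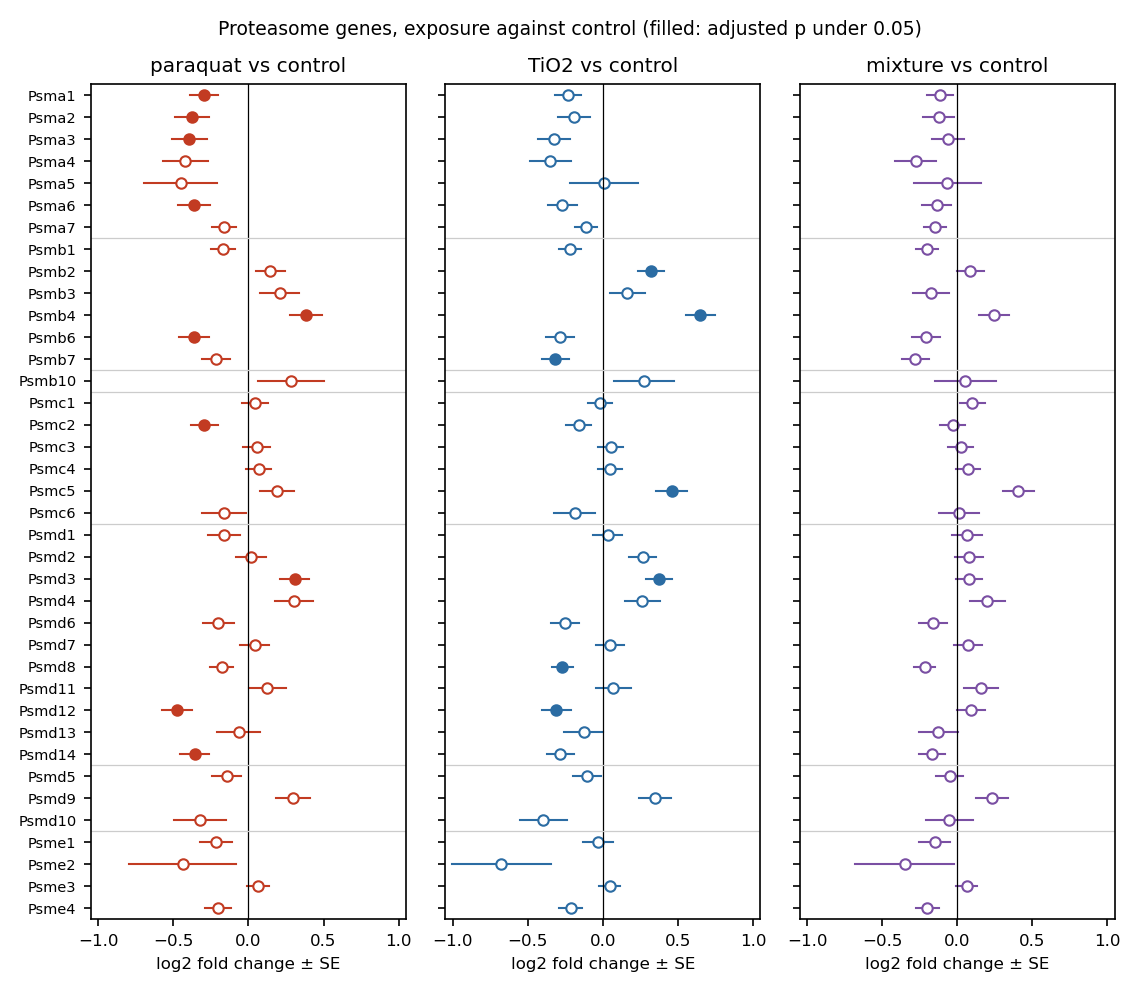
Log2 fold change ± SE (horizontal axis) of each of the 38 genes, grouped by class, for paraquat, TiO2 and the mixture against the same 4 control libraries. Filled points passed the test, 10 genes with paraquat (10.4% of all genes), 7 with TiO2 (6.4%) and 0 with the mixture (1.19%).

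The third comparison asks what the mixture changed. None of the 38 genes was called by limma, where 1.19% of all genes were called, 1.12% higher and 0.0707% lower. At an unadjusted p under 0.05 there were 8 (12.2% of all genes). The edgeR quasi-likelihood test called 0 (1.07% of all genes) and DESeq2 called 1 (1.93%). The gene with the smallest p was Psmc5, at 208, 195, 228 and 221 in mixture 1 to 4 against 139 to 190 in control. Its mixture libraries were all above control (log2 0.41 ± 0.10, adjusted p = 0.0503), and it passed with DESeq2, with TMM scaling and with the GC trend removed, where 1.7% of all genes were called and 1.49% were higher. It also passed without control 2, paraquat 2, paraquat 3 or TiO2 3. Over all alternatives its adjusted p ran from 0.0251 to 0.176.

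Genes called with a single exposure had these values in the mixture. Psmd12 had 437, 508, 434 and 437, within or above the control range of 395 to 455 (log2 0.09 ± 0.09). Psmb4 had 288, 305, 376 and 323, overlapping control (0.25 ± 0.10, adjusted p = 0.279). Psmd3 had 482, 430, 542 and 493, also overlapping control (0.08 ± 0.09).

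Psma3 had 373, 376, 284 and 366 in the mixture (log2 −0.06 ± 0.11), with mixture 3 apart from the others. Psmb7 had 425, 348, 348 and 372 (−0.28 ± 0.09, adjusted p = 0.144) and Psmd8 had 1139, 984, 974 and 995 (−0.22 ± 0.07, adjusted p = 0.157). All mixture libraries were below every control for Psmd8, whereas mixture 1 lay within the control range for Psmb7. Among the alpha genes, Psma6 had 663, 603, 570 and 658 and Psma1 had 637, 636, 521 and 640, both overlapping control. Psma2 had 219, 225, 176 and 238. Mixture 3 was the lowest in all of these alpha genes. Psma4 had 71.3, 74.8, 64.5 and 62.7, all below control (−0.28 ± 0.14, adjusted p = 0.425).

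The remaining genes called elsewhere overlapped control in the mixture. Psmb2 had 965, 922, 909 and 812 and Psmb6 had 261, 241, 225 and 234. Psmc2 had 450, 421, 420 and 453 and Psmd14 had 498, 432, 453 and 473. None of these 4 had a log2 difference beyond −0.21 to 0.09. The alpha genes had a median of −0.12, all 7 below 0, and the 17 genes of ATPases and other regulatory particle subunits a median of 0.07. Over the 38 genes, the mixture libraries were below all controls in 3 (3.37% of all genes) and above in 1 (4.38%).

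Set against each other, the exposures gave no called member. The mixture against paraquat had 0 by limma and by edgeR (each 0.00643% of all genes) and 1 by DESeq2 (0.887%), with 8 at an unadjusted p under 0.05 (14.4% of all genes). Psmd12 had the smallest p there (log2 0.57 ± 0.10, adjusted p = 0.0577), and every mixture library was above every paraquat library. It passed with DESeq2, with TMM scaling, in a fit of only the 2 groups, without TiO2 3 or TiO2 4, and with the GC trend removed, where 0.0514% of all genes were called. The mixture libraries were above all paraquat libraries in 4 members (7.17% of all genes), Psma6, Psmc2, Psmd12 and Psmd14, and below them in 1, Psmb3 (6.61%).

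The mixture against TiO2 had 0 by limma and edgeR and 2 by DESeq2 (0.354% of all genes), Psmd12 and Psmb4, with 7 at an unadjusted p under 0.05 (11.4%). Its libraries were above all TiO2 libraries for Psmc2 and Psmd12 (3.28% of all genes) and below them for 5 members, Psmb2, Psmb3, Psmb4, Psmd2 and Psmd3 (3.43%). Paraquat against TiO2 had 0 by all 3 tools (0.0964% of all genes by DESeq2), with 3 at an unadjusted p under 0.05 (6.41%). Its libraries were above all TiO2 libraries in 0 members (2.94% of all genes) and below them in 4, Psmb4, Psmc2, Psmc5 and Psmd2 (2.87%). Limma called 0% of all genes in these last comparisons.

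The design also allows a test of non-additivity: on the log2 scale, the effect of the mixture less the summed effects of paraquat and of TiO2. It asks whether the mixture differs from the sum of the single effects, and it shares all libraries with the comparisons above. Doses are not given, so whether the mixture held each agent at its single-exposure dose is not known. A lower dose in the mixture cannot be told apart from non-additivity. Of the 38 genes 10 were called, 7 higher and 3 lower than additivity, where 11.8% of all genes were called, 5.41% higher and 6.36% lower. At an unadjusted p under 0.05 there were 18 members (28.2% of all genes). The largest was Psmd12 at 0.87 ± 0.14 (adjusted p = 0.000642): it fell with each single exposure, and the mixture libraries lay at 434 to 508. Psmb4 was at −0.79 ± 0.14 (adjusted p = 0.00203) and Psmd3 at −0.60 ± 0.13 (adjusted p = 0.00550), both of which rose with each single exposure.

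The other genes above additivity were Psma3 (0.66 ± 0.16), Psma6 (0.50 ± 0.14), Psmd14 (0.47 ± 0.13), Psmb6 (0.44 ± 0.14), Psmc2 (0.43 ± 0.12) and Psma1 (0.41 ± 0.13). Each of these had been called lower with paraquat. The single-exposure differences enter this test with their sign reversed. This overlap is therefore partly built in, also for Psmd12, Psmb4 and Psmd3. Psmb3, a structural beta gene, was below additivity (−0.55 ± 0.17, adjusted p = 0.0424), with 119, 98.0, 95.8 and 88.5 in control, 116, 121 and 109 with paraquat, 104, 125, 117 and 102 with TiO2 and 96.1, 82.4, 90.5 and 84.3 in the mixture. The non-additivity correlated with GC content across the 38 genes at r = −0.64 (−0.46 across all genes). With the GC trend removed 6 members were called (7.2% of all genes), Psmd12, Psmb6 and Psma3 higher and Psmb4, Psmd3 and Psmb2 lower. The count was 5 without paraquat 1 (5.67% of all genes) or mixture 4 (7.06%), and 6 without paraquat 3 (7.58%) or TiO2 3 (6.5%). Psmd12, Psmb4, Psmd3 and Psma3 were called in every one of 23 alternative settings and left-out libraries. Psmd14 was lost without paraquat 1, Psmc2 without control 1, paraquat 1 or mixture 4, and Psma6 without control 1, paraquat 3, TiO2 3, mixture 1 or mixture 4. Psma1, Psmb3 and Psmb6 were each lost without any of 9 or 10 libraries.

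Libraries of a group differed among themselves. The median difference of the 7 alpha genes from the control mean, on the log2 scale, was −0.37, −0.24 and −0.54 in paraquat 1 to 3, −0.15, −0.18, −0.39 and −0.18 in TiO2 1 to 4 and −0.075, −0.047, −0.33 and −0.037 in mixture 1 to 4. Control libraries lay between −0.048 and 0.019, and are close to 0 by construction. Paraquat 3, TiO2 3 and mixture 3 were the lowest of their groups. The correlation across genes of a library's deviation with GC content was 0.28 in paraquat 3, where paraquat 1 had 0.33, and it was the highest of its group in TiO2 3 (0.45) and mixture 3 (0.087). The 6 ATPase genes showed no such shift, with library medians of −0.051 to 0.11 in the 11 exposed libraries.

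**Figure D5:**
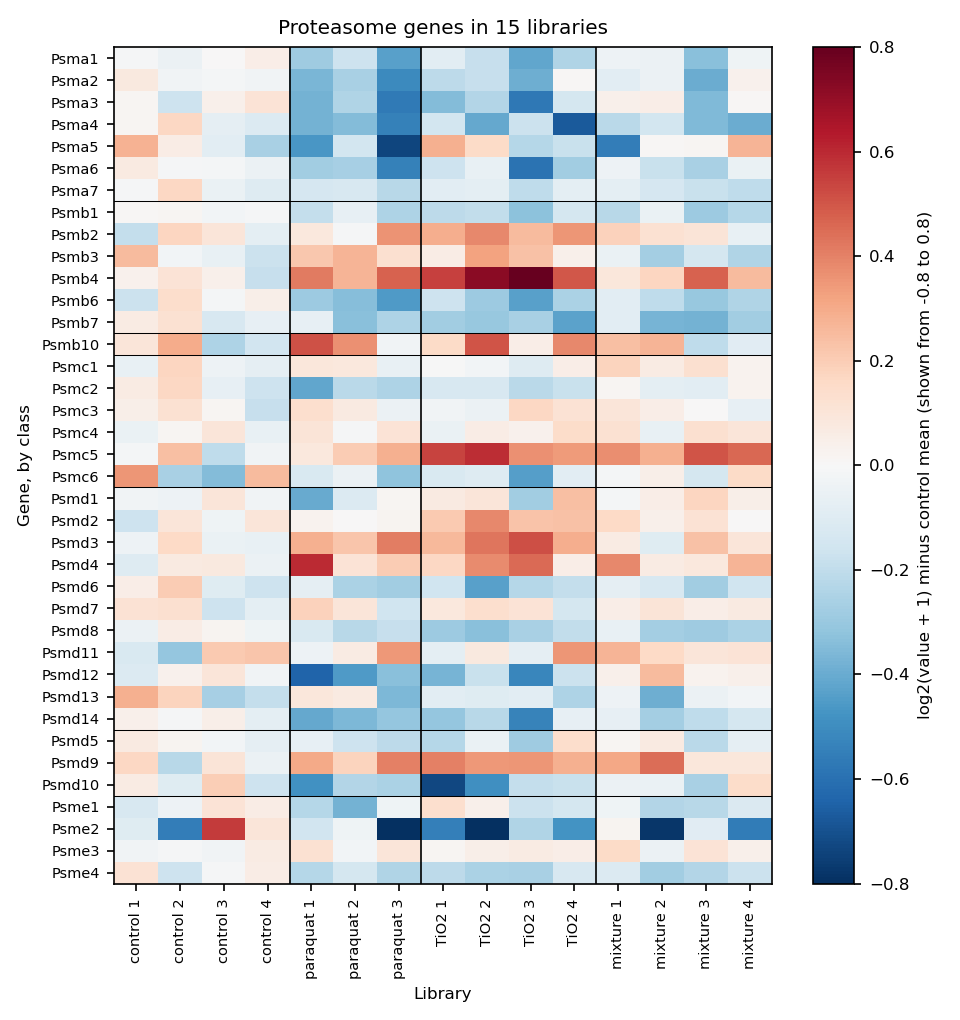
Difference of log2(value + 1) from the mean of the 4 control libraries for each of 38 genes (rows, by class) in 15 libraries (columns), with colours from −0.8 to 0.8. Psma1, Psma2, Psma3 and Psma6 at the top are each lowest of their group in paraquat 3, TiO2 3 and mixture 3, and the Psmb4 row is highest in TiO2 3.

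Of the members that interferon induces in other settings, Psmb10 and Psme2 were low and Psme1, at 317 per kilobase in control, stood above the median gene. Psmb10, which replaces Psmb7 in the immunoproteasome, had 25.9, 29.9, 20.2 and 21.6 normalised reads in control, 34.7, 31.5 and 23.7 with paraquat, 27.0, 34.6, 25.1 and 31.8 with TiO2 and 28.7, 29.3, 20.8 and 22.6 in the mixture. The groups overlapped in each comparison (log2 0.28 ± 0.22, 0.27 ± 0.20 and 0.05 ± 0.20). Psme1 and Psme2 encode the subunits of the PA28 activator ring. Psme1 had 206, 219, 243 and 234 in control, 192, 173 and 219 with paraquat, 247, 232, 200 and 204 with TiO2 and 220, 191, 192 and 208 in the mixture.

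Psme2 had 14.5, 10.3, 23.4 and 16.7 in control, 13.9, 15.2 and 6.58 with paraquat, 10.4, 5.08, 13.0 and 10.9 with TiO2 and 15.8, 8.68, 14.6 and 10.3 in the mixture. These are few reads, and the sequence copy Psme2b, which is no member, had 75.3 to 109, so reads of Psme2 may have been assigned to it. The 10 interferon response markers summed to 198 to 553 in control, 139 to 228 with paraquat, 178 to 233 with TiO2 and 167 to 257 in the mixture. Of the 10, 0 were called with paraquat, TiO2 or the mixture (10.4%, 6.4% and 1.19% of all genes). At this depth a change in Psme2 of the size seen for other members was not detectable, with standard errors of 0.33 to 0.36.

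The other activator genes had higher read counts than these. Psme3, the gene of the nuclear PA28 gamma, had 880, 892, 877 and 937 in control, 976, 882 and 957 with paraquat, 905, 927, 936 and 928 with TiO2 and 995, 868, 966 and 922 in the mixture. Its log2 fold changes were 0.06 ± 0.07, 0.04 ± 0.07 and 0.06 ± 0.07. Psme4, the gene of the PA200 activator, had 595, 490, 545 and 572 in control, 468, 498 and 464 with paraquat, 474, 460, 459 and 502 with TiO2 and 508, 453, 466 and 486 in the mixture. Its values were −0.20 ± 0.08, −0.21 ± 0.08 and −0.20 ± 0.08, none of which passed (adjusted p = 0.119, 0.0976 and 0.262), and −0.029, −0.048 and −0.17 with the GC trend removed.

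Of 14 measured genes of subunits without the Psm family names, assembly factors and bound enzymes, 2 fell with paraquat (4.06% of all genes were called lower). These were Sem1, which encodes the small lid subunit (−0.40 ± 0.10, adjusted p = 0.0158), and the assembly chaperone gene Psmg4 (−0.43 ± 0.13, adjusted p = 0.0349). How these calls fared with the GC trend removed or a library left out is not reported here. The list median was −0.18 with paraquat, −0.15 with TiO2 and 0.046 with the mixture. None passed for TiO2 or the mixture (6.4% and 1.19% of all genes). Pomp, the maturation factor of the core, had −0.19 ± 0.09, −0.03 ± 0.09 and 0.12 ± 0.09. The ubiquitin receptor gene Adrm1 had −0.27 ± 0.20, 0.02 ± 0.18 and 0.08 ± 0.18, and the inhibitor gene Psmf1 0.09 ± 0.10, 0.18 ± 0.10 and 0.03 ± 0.10. The deubiquitinase genes Usp14 and Uchl5 had −0.20 ± 0.11 and −0.20 ± 0.21 with paraquat, −0.25 ± 0.10 and −0.13 ± 0.19 with TiO2 and −0.01 ± 0.10 and 0.12 ± 0.19 with the mixture, and Usp14 was above additivity (0.44 ± 0.15, adjusted p = 0.0488).

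The transcripts of the factors that control subunit genes did not pass in any exposure. Nfe2l1 had log2 fold changes of 0.10 ± 0.08 with paraquat, −0.05 ± 0.08 with TiO2 and 0.02 ± 0.08 with the mixture, and Nfe2l2, the gene of the oxidative stress factor Nrf2, had 0.06 ± 0.11, 0.16 ± 0.10 and −0.03 ± 0.10. Of the 8 measured genes of Nrf1 control, 0 were called with paraquat, TiO2 or the mixture (10.4%, 6.4% and 1.19% of all genes). Ngly1, the deglycosylase that activates Nrf1, was above additivity (0.54 ± 0.16, adjusted p = 0.0316). As background, Nrf1 is known to be controlled largely at the level of its protein.

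Of 5 measured genes of ubiquitin and its activating enzymes, 0 were called, at medians of −0.023, −0.078 and 0.039 for paraquat, TiO2 and the mixture. Over all genes, 10.4%, 6.4% and 1.19% were called in these comparisons. Bag6, whose product is a chaperone that hands misfolded proteins to the ubiquitin system, was below additivity (−0.38 ± 0.12, adjusted p = 0.0408).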

How the data were processed

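The authors deposited 1 table of normalised signal, in which each gene's reads are scaled by 1 factor for the library. This was read from the values, 100% of which are whole multiples (within 0.001) of the worth of 1 read in their library. In 4 libraries that worth lies within 1% of 1, so whole reads count as recovered in 11. Tools and build named per the submitters' processing notes are DESeq2 2.1.8.3, Bowtie2 2.3.2.2 and mm10. Which counter, annotation and strand setting were used is not given in the sources used here. The labels name no molecular identifiers, so depth bears on counting error only.

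The main test was limma 3.58.1 (R 4.3.3, trend and robust) on log2(value + 1), a scale that understates the change of low genes, with all 15 libraries in 1 fit. The filterByExpr function of edgeR 4.0.16 dropped 13 genes. Calls used a Benjamini-Hochberg adjusted p under 0.05 over 15556 genes. Alternatives were edgeR and DESeq2 1.42.0 on reads recovered the same way in all 15 libraries, pseudocounts of 0.5 and 10, no filter, TMM scaling, a 2-group fit, removal of a GC trend (lowess) from each library, a replicate block and leaving out each library. The test was also run on simulated counts of independent genes. These had no GC trend or shift in cell makeup, so that run does not bear on either. Positions, lengths (median of coding transcripts) and GC content come from GENCODE M21 on GRCm38, which matched all 15569 symbols. The genes and lists were chosen with earlier results of these data known. Values in every library are given for members called in any comparison, the cutting, interferon-induced and activator genes and the gene of smallest p among the alpha, beta, ATPase, other regulatory and activator genes. Pathway genes are named where called, and some regulators in any case. The list of shuttle and extraction factors is not reported here as a whole.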

Additional observations from a re-analysis of the deposited data

Results flagged for a closer look

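Among 66 groups of 4 libraries checked, 6 values of named members lay far from the other 3 of their group, and chance alone does this in about 1 in 20 groups. Mixture 3 was low for Psma1 (521.3, others 636 to 640) and for Psma3 (284.0, others 366 to 376). Control 1 was high for Psma2 (244.5, others 227 to 230) and control 2 for Psmd3 (512.9, others 441 to 446). Mixture 1 was high for Psmd8 (1139, others 974 to 995) and mixture 2 for Psmd12 (507.7, others 434 to 437).

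The mixture differed from the sum of the single exposures, by the limma test of that difference, in 10 members (11.8% of all genes were called). The single-exposure differences enter this test with their sign reversed, so the overlap with their calls is partly built in. Whether each agent had the same dose alone and in the mixture is not given. The values on the log2 scale were 0.41 for Psma1, 0.66 for Psma3, 0.50 for Psma6, −0.55 for Psmb3, −0.79 for Psmb4, 0.44 for Psmb6, 0.43 for Psmc2, −0.60 for Psmd3, 0.87 for Psmd12 and 0.47 for Psmd14. With the GC trend removed 6 members were called (7.2% of all genes). Psma1, Psmb3 and Psmb6 were each lost without any of 9 or 10 libraries.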

How the results depend on the processing

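Counts of called members were 10 for paraquat (10.4% of all genes), 7 for TiO2 (6.4%), 0 for the mixture (1.19%) and 10 for non-additivity (11.8%). Between exposures they were 0 (at most 0.00643%). With the GC trend removed, paraquat had 3 (7.73%), TiO2 6 (5.51%), the mixture 1 (1.7%) and non-additivity 6 (7.2%). The mixture against paraquat then had 1 (0.0514%). The replicate block gave 11 for TiO2 and 1 for the mixture, with 11 for paraquat and 9 for non-additivity. Its shares of all genes called are not reported here, so these counts cannot be set against them. Whether the numbers pair the samples is not known. Of 21 same-numbered pairs, 8 correlated above 0.1 (−0.19 to 0.27), and of 63 differently numbered pairs 18 did (−0.34 to 0.34). These values cannot decide it. TMM scaling gave 1 for the mixture and 1 for the mixture against paraquat, and a 2-group fit 1 for the mixture against paraquat. The shares of all genes called in these settings are not reported here. DESeq2 gave 1 (1.93% of all genes), 1 (0.887%) and 2 (0.354%) for the mixture against control, paraquat and TiO2. Leaving out each library gave 2 to 10 for paraquat (4.27% to 13.0% of all genes), 3 to 8 for TiO2 (3.0% to 8.99%), 0 to 1 for the mixture (0.334% to 1.68%), 0 to 1 for the mixture against paraquat (0% to 0.341%), 0 to 0 for the mixture against TiO2 (0% to 0.09%) and for paraquat against TiO2 (0% to 0.0707%), and 5 to 12 for non-additivity (5.67% to 14.9%). Psmb10 in the mixture, 0.05 with all libraries, ran from −0.028 to 0.15 over the left-out libraries and was below 0 without control 3 (−0.028), mixture 1 (−0.0086) or mixture 2 (−0.018). No called member changed direction in any alternative: 519 repeats kept the call and 119 lost it. Few reads limit Psme2, Psmb10 and Psma5.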
